A study of Mus musculus with 4 samples.

Results

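The aryl hydrocarbon receptor Ahr, its repressor Ahrr, the vitamin D receptor Vdr, the retinoic acid receptor Rara, its partner Rxra and the glucocorticoid receptor Nr3c1 are among the factors through which T cells of the gut sense diet, vitamins, microbial products and steroid hormones. These 6 genes were chosen by name, for that role, out of 21887 protein-coding genes, and open chromatin in and around them was counted for each cell type label in gut and tumor. T cells were sorted from AKP tumors, which grow from engineered mouse cancer organoids that were transplanted into the cecal wall, and from the adjacent tumor-free cecum, both 4 weeks after transplantation. A multiome assay measured both RNA and accessible DNA (ATAC) in each nucleus, and the authors gave each cell a label made from its RNA. The ATAC data consisted of 1 cecum and 1 tumor library, how many animals went into each was not stated in the labels or methods, and the RNA was not analysed here. With 1 library per tissue no test was possible and no p-value is given, and tissue and library cannot be told apart. Intervals are exact, at 95%, and reflect counting error alone.

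AHR is a cytosolic sensor that enters the nucleus upon binding ligands such as dietary indoles, tryptophan metabolites and pollutants, pairs with ARNT and turns on detoxifying enzymes and, in Th17 and innate-like lymphocytes, interleukin-22. AHRR is itself induced by AHR and competes with it. VDR, RARA and RXRA are nuclear receptors in which RXRA is the common partner, and retinoic acid made by gut dendritic cells is known to induce gut-homing receptors and to favour peripheral Treg cells, while the glucocorticoid receptor encoded by Nr3c1 mediates the anti-inflammatory effect of steroid hormones.

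On chromosomes 1 to 19, X and Y the cecum library held 66399623 fragments and the tumor library 96644537, of which 66.2% and 64.3% came from 7155 and 8466 labelled cells. The median labelled cell carried 4374 fragments (cecum) or 5846 (tumor), and 84 labelled barcodes occurred in both libraries (1.17% and 0.992% of the cells). Levels are given in FPM, the number of fragments with an end in the gene span or within 5 kb of it for every 1000000 fragments of the same label and library. Of 17 labels, 16 had at least 50 cells in each library and were ranked, and PD1+ CD4 with 14 cecum cells was not. Ranked labels had between 426832 fragments (Newly activated CD4, cecum) and 12494761 (Innate-like T#1, tumor). Marker loci followed the labels for Foxp3 (highest in IL-10+ Treg), Gata3 (Th2), Cxcr5 (Tfh-like), Ccr7 (CCR7+ CD4) and Trdc (Cytotoxic gdT) in both libraries. Il17a was highest in Th17 in the cecum and in Rorgt gdT in the tumor. Loci did not follow the labels for Il2ra, highest in Rorgt gdT rather than Treg in both libraries (226 and 231 FPM), for Tbx21, highest in Cytotoxic CD8 rather than Mucosal Th1, for Fcer1g, highest in CD8aa rather than an Innate-like label, and for Pdcd1, highest in Tfh-like (cecum) and Rorgt gdT (tumor) rather than PD1+ CD8. Summed windows of marker genes of other cells lay between 0.385 and 0.733 FPM per kb for 5 B cell genes (highest in Tfh-like), 0.203 and 0.494 for 6 myeloid genes (highest in PD1+ CD8) and 0.186 and 0.492 for 9 epithelial genes (highest in Innate-like T#1), and no list was at 0 in any ranked label.

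RefSeq promoter sequences (GRCm38.p6) of 250 bases up to the transcription start were matched for 4 of the 6 genes: Ahrr, Vdr, Rara and Rxra. Capitals mark GCGTG, the core of the AHR response element, and AGGTCA, the core bound by many nuclear receptors, on either strand. Another motif, TGTTCT, the core of the glucocorticoid response element, was searched in the same way and found in none of the sequences, and the motifs do not overlap each other here. Of 32851 mouse promoters of the same length, 28.2% hold GCGTG, 14.0% AGGTCA and 16.1% TGTTCT, so a single match is common.

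The Ahrr promoter (chr13:74292332-74292581, minus strand) is shown because it holds 3 copies of GCGTG, beginning 107, 82 and 27 bases before the start, and because its level is compared between Treg subsets.
Ahrr: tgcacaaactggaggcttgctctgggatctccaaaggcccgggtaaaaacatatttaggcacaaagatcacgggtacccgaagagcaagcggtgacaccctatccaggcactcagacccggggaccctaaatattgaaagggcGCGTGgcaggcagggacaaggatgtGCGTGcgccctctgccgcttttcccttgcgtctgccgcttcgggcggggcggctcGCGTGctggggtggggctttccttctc
The Vdr promoter (chr15:97908297-97908546, minus strand) lies at the most open tile within the gene span and holds 1 copy of GCGTG, 79 bases before the start.
Vdr: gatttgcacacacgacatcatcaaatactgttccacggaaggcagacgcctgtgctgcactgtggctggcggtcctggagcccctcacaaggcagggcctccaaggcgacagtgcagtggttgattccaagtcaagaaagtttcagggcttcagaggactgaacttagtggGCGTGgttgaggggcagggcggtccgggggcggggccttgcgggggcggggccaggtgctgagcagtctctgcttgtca
Of 4 Rara starts, that at 98937696 (chr11:98937446-98937695, plus strand) holds 1 GCGTG, and that at 98939711 (chr11:98939461-98939710, plus strand), which holds none of the motifs, is shown because its tile was most open in Innate-like T#2 cells.
Rara, start at 98937696: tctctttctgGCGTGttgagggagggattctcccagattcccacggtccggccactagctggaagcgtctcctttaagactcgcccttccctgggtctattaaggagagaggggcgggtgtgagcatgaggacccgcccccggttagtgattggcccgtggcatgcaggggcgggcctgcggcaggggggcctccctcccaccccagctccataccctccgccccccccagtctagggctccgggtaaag
Rara, start at 98939711: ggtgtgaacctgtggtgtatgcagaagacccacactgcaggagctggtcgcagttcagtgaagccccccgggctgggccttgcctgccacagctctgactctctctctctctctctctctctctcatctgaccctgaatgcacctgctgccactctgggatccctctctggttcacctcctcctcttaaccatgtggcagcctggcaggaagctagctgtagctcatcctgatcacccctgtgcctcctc
Of 2 Rxra starts, that at 27677201 (chr2:27676951-27677200, plus strand) is a CpG-rich stretch with 40 CpG and 81.2% G and C and none of the motifs, and that at 27709292 (chr2:27709042-27709291, plus strand) holds 2 copies of AGGTCA, beginning 87 and 48 bases before the start, with 1 CpG.
Rxra, start at 27677201: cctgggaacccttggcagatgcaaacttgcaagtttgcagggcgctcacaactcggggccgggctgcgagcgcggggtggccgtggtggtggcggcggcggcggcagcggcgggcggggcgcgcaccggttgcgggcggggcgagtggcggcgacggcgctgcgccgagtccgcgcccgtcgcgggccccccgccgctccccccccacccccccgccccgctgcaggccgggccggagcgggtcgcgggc
Rxra, start at 27709292: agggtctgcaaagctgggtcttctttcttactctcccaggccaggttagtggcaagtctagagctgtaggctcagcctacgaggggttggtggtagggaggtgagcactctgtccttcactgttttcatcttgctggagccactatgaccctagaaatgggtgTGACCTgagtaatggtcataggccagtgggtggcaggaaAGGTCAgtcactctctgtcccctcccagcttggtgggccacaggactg
A match is a description of the letters and not evidence of binding.

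The gene spans (GRCm38.p6) are chr12:35497979-35534989 for Ahr, chr13:74211118-74292331 for Ahrr, chr15:97854427-97908296 for Vdr, chr11:98927800-98974942 for Rara, chr2:27676445-27763319 for Rxra and chr18:39410545-39519421 for Nr3c1. Open chromatin was widespread at all 6 loci, and no gene was restricted to a single label. Per kb of window, the median over labels was highest for Rara, with 5.68 FPM per kb (cecum) and 5.99 (tumor), followed by Nr3c1 with 2.53 and 2.33 and Ahr with 1.5 and 1.45. Ahrr with 1.01 and 0.735, Vdr with 0.907 and 0.873 and Rxra with 0.689 and 0.718 were lower. The same label led in both libraries for 2 of the 6 genes, Ahrr (Innate-like T#1) and Nr3c1 (Th2), against 26% of 17355 genes with at least 50 fragments in each library. None of the 6 was specific, that is, led by the same label at 1.5 times the median label or more in both libraries after 1 FPM was added to each level, against 12.7% of genes. Ahrr lay just below that limit in the cecum, where its leading label had 1.44 times the median, and above it in the tumor with 1.72 times. With the same leading label it passed in both libraries under the mean over cells (10.8% of genes) and in the count that left out cells deeper than 3 times the median cell (12.3%). It also passed in the window of 1 kb around the start (8.01%), but there Th2 led, on 9 (cecum) and 6 (tumor) fragments. Between neighbours in the order of labels the intervals overlapped at each of the 15 steps for every gene and library, with the exception of the last step for Ahr in the tumor. Levels over labels nevertheless resembled each other across libraries. Pearson r of log2(FPM + 1) over 16 labels lay between 0.699 (Nr3c1) and 0.906 (Rxra), where the median over all genes was 0.427. That median includes genes with as few as 50 fragments in a library, while Rxra had at least 2530. No comparison with genes of like coverage was made. These points share their libraries and depths, and the r values are a description.

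**Figure D1:**
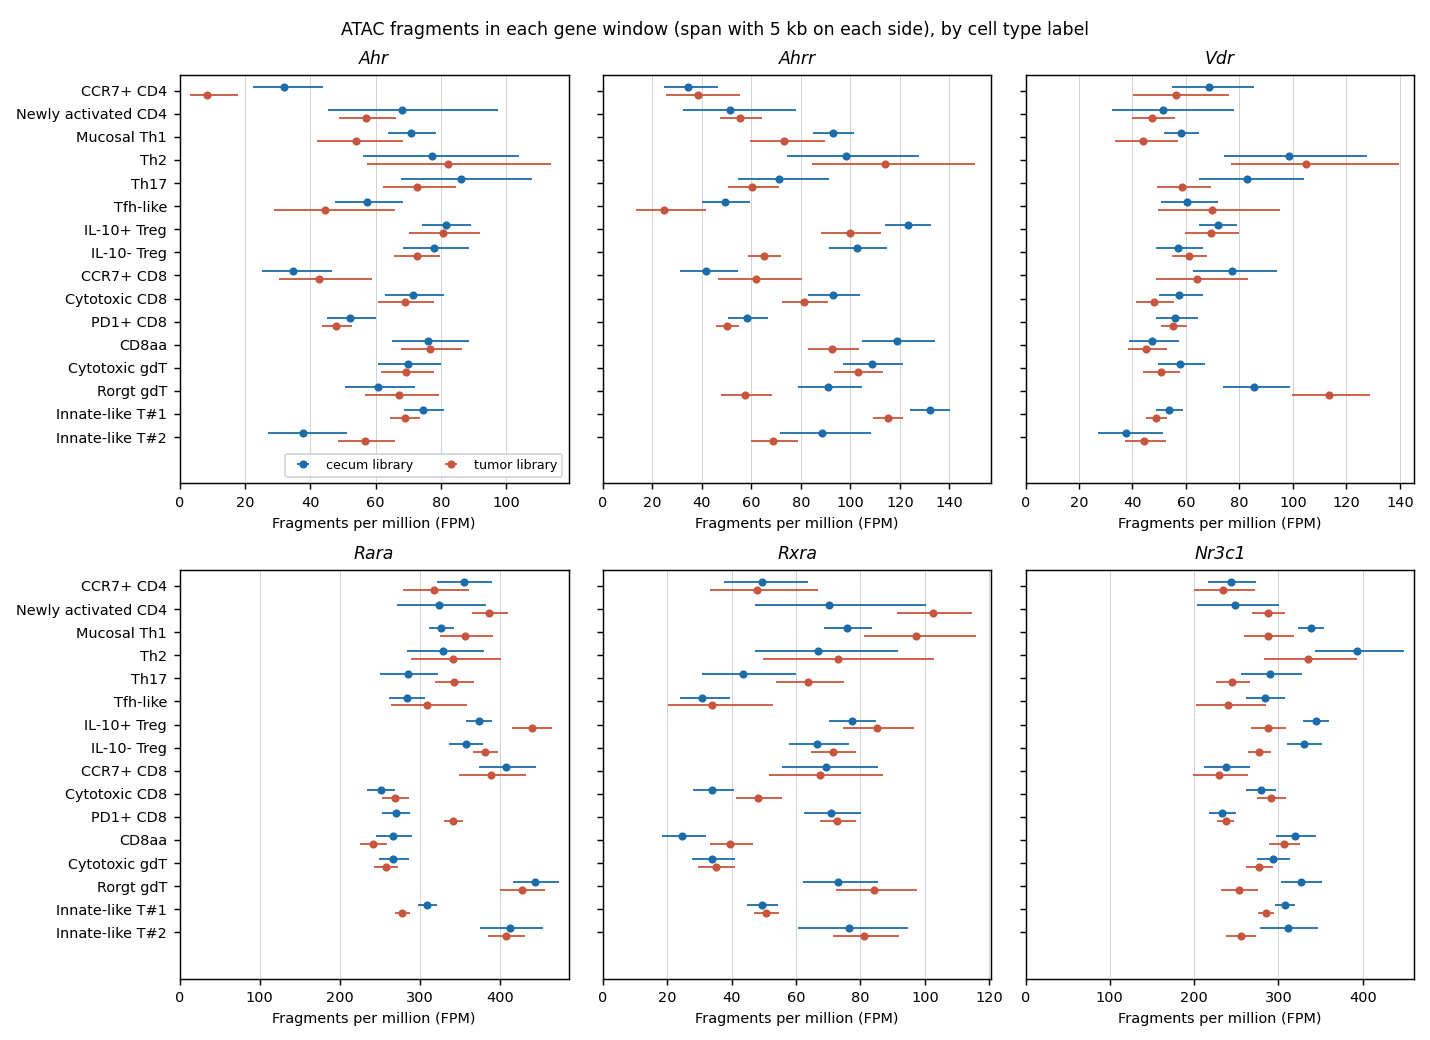
Level of each gene in scaled fragments (FPM, x axis, linear from 0) in the 16 ranked labels (y axis), with cecum in blue, tumor in red and exact 95% Poisson intervals as bars. Ahr was lowest in CCR7+ CD4, Ahrr in the cecum was highest in Innate-like T#1, IL-10+ Treg and CD8aa, Vdr was highest in Th2 and Rorgt gdT, and Rxra was low in CD8aa, Cytotoxic gdT and Tfh-like.

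Ahr, the receptor itself, was open in nearly all effector labels and low in CCR7+ cells, those that carry the lymph node homing receptor of naive and central memory T cells. In the cecum its level was 86.1 FPM (67.7 to 108) in Th17, 81.4 (74.2 to 89.2) in IL-10+ Treg, 78.0 (68.3 to 88.6) in IL-10- Treg, 77.4 (56.2 to 104) in Th2 and 76.1 (64.9 to 88.7) in CD8aa. The lowest levels were 31.9 (22.5 to 43.7) in CCR7+ CD4, 34.6 (25.2 to 46.5) in CCR7+ CD8 and 37.7 (26.9 to 51.4) in Innate-like T#2. The top 5 labels did not differ beyond their intervals, and each of them lay above all 3 of the lowest. In the tumor Th2 had 82.0 (57.4 to 114) and IL-10+ Treg 80.6 (70.3 to 92.0), CCR7+ CD8 had 42.8 (30.3 to 58.7), and CCR7+ CD4 had 8.22 (3.02 to 17.9), which rested on 6 fragments of 164 cells. The cecum level was 2.70-fold (1.81 to 4.11) higher in the leading than in the lowest label and the tumor level 9.98-fold (4.16 to 29.0). PD1+ CD4 cells, nearly all from the tumor, had 57.0 (51.2 to 63.3) there.

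Most fragments of Ahr lay at the upper end of its span. The 3 tiles of 500 bp with the most fragments covered chr12:35534001-35535500 and held 25.0%, 17% and 15.9% of the tile sum. The end of the gene span, at 35534989, lies in this stretch. The tile with the largest ratio of a label over all other cells was chr12:35510501-35511000, 24.2 kb inside that end, where Innate-like T#1 had 3.59 FPM from 29 fragments in cecum and 2.80 from 35 in tumor cells, against 0.501 and 0.806 in the other cells. The tile was chosen for this ratio, so the values are a description. The table of genes used here holds no exons, so no tile was assigned to exonic or intronic sequence.

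Ahrr, the repressor that AHR induces, was most open in Innate-like T#1, IL-10+ Treg and CD8aa cells of the cecum. In the cecum Innate-like T#1 had 132 FPM (124 to 140), IL-10+ Treg 123 (114 to 133), CD8aa 119 (105 to 134), Cytotoxic gdT 109 (97.2 to 121) and IL-10- Treg 103 (91.5 to 115). The lowest were Tfh-like with 49.2 (40.3 to 59.6), CCR7+ CD8 with 41.7 (31.3 to 54.6) and CCR7+ CD4 with 34.4 (24.7 to 46.6). In the tumor Innate-like T#1 led again with 115 (109 to 121), before Th2 with 114 (84.5 to 150) and Cytotoxic gdT with 103 (93.6 to 113), and Tfh-like was lowest with 25.0 (13.7 to 41.9) from 14 fragments. PD1+ CD4 cells of the tumor had 40.4 (35.5 to 45.7). Innate-like T#1, the leading label, was also the label with the highest summed epithelial markers, 0.469 FPM per kb (cecum) and 0.492 (tumor), and their part in the result was not tested.

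Ahrr had 3 separate open stretches. The tile with the most fragments, chr13:74208501-74209000, held 22.3% of the tile sum but lies outside the span, 2.37 kb below its lower end and 1.28 kb from an end of Exoc3, a gene of the exocyst complex. Exoc3 reaches into the flank of the Ahrr window, and its fragments there cannot be told apart from those of Ahrr. The Ahrr levels with flanks include this tile. The next, chr13:74260001-74260500 with 19.6% and its neighbour chr13:74259501-74260000 with 9.63%, lie within the gene, 32.1 and 32.6 kb from the start. The tile that holds the start, chr13:74292001-74292500, had 4.05%. In the tile at 74260001 the cecum level was 39.1 FPM in IL-10+ Treg, 36.2 in CD8aa, 35.3 in IL-10- Treg and 35.1 in Innate-like T#1, and 2.36 in CCR7+ CD8 from 3 fragments. In the tumor Th2 had 41.0 there, Innate-like T#1 32.4 and CCR7+ CD4 no fragment. Within 1 kb of the start, shown above with its 3 GCGTG letters, the level ran from 15.8 in Th2 (9 fragments), 12.4 (9.71 to 15.7) in IL-10+ Treg and 10.9 (8.75 to 13.4) in Innate-like T#1 to 0.278 (0.00703 to 1.55) in PD1+ CD8 in the cecum. No fragment was seen there in CCR7+ CD4 of both libraries, in CCR7+ CD8 and Newly activated CD4 of the cecum and in Tfh-like of the tumor.

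Vdr was most open in Th2 and Rorgt gdT cells, the latter being gamma-delta T cells of the interleukin-17 type. In the cecum Th2 had 98.5 FPM (74.4 to 128), Rorgt gdT 85.6 (73.7 to 98.8), Th17 82.7 (64.7 to 104) and CCR7+ CD8 77.2 (62.6 to 94), and Innate-like T#2 was lowest with 37.7 (26.9 to 51.4). In the tumor Rorgt gdT had 113 (99.5 to 129) and Th2 105 (76.7 to 140), of which Rorgt gdT lay above the intervals of all 14 other labels, while that of Th2 overlapped those of Tfh-like, IL-10+ Treg and CCR7+ CD8. Mucosal Th1 was lowest with 44.0 (33.3 to 57.0). Of the tile sum of Vdr, 27.6% and 12.6% came from the tiles chr15:97849501-97850000 and chr15:97849001-97849500. They lie below the span, 5.25 and 4.75 kb from an end of Hdac7, a histone deacetylase gene. Most of the second tile lies beyond the 5 kb flank, outside the counted window. The order of labels at Vdr depended on the window. With flanks of 50 kb the lead of both labels was lost, since Th2 had 1.01 times the median label in the cecum and Rorgt gdT 1.17 times in the tumor, and CCR7+ CD8 (cecum) and CCR7+ CD4 (tumor) were highest. Counted within the span alone the differences were larger, and Rorgt gdT had 46.7 FPM (38.0 to 56.8) in cecum and 72.4 (61.5 to 84.8) in tumor cells, and Th2 had 51.0 (34.1 to 73.2) and 66.1 (44.2 to 94.9). Gm33690 and Gm52171 overlap the Vdr span, and their fragments cannot be separated from those of Vdr. The leading label was then 2.79-fold the median label in the cecum (Th2) and 4.71-fold in the tumor (Rorgt gdT). CD8aa with 7.89 (4.60 to 12.6) in the cecum and CCR7+ CD4 with 9.59 (3.86 to 19.8) in the tumor were lowest.

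A single tile stood out in that contrast. In chr15:97890501-97891000, 17.5 kb inside the Vdr start, Rorgt gdT had 12.5 FPM from 27 fragments in cecum and 15.5 from 33 in tumor cells. All other labelled cells together had 0.55 and 0.233, log2 ratios of 4.50 (3.65 to 5.37) and 6.06 (5.11 to 7.07). No fragment was seen in 7 of the 16 labels (cecum) and in 9 (tumor), and at these depths 0 fragments do not show that the site is closed. The next labels were Th2 with 3.52 and Th17 with 3.44 in the cecum and IL-10+ Treg with 1.47 in the tumor. The tile was chosen for this ratio, so the ratio is a description, and 500-bp tiles reaching 20 fragments in a label of each library numbered 7 of 129 for Vdr. The start tile itself, chr15:97908001-97908500, had 26.4 in Rorgt gdT in the cecum and 36.4 in Th2 in the tumor, against medians of 17.4 and 14.7.

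**Figure D2:**
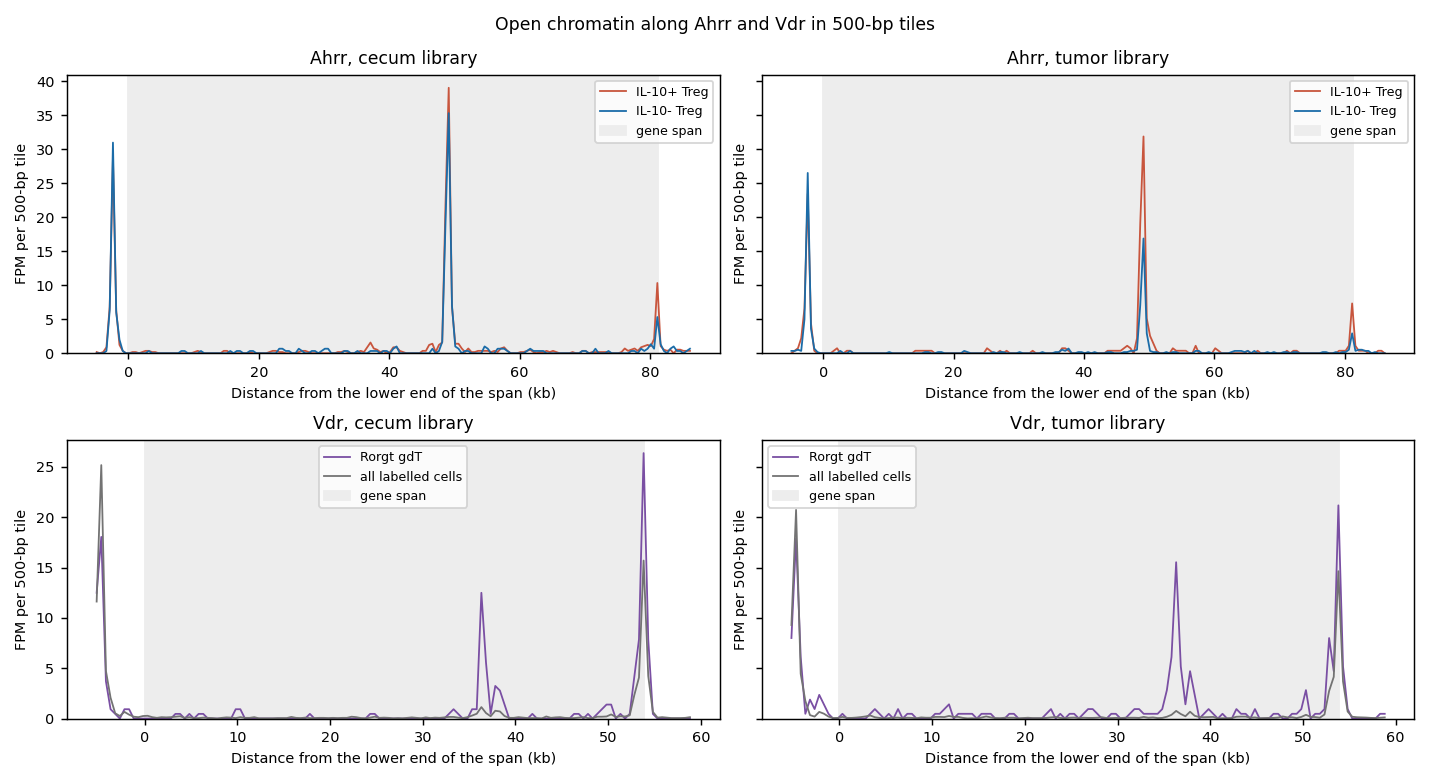
FPM per 500-bp tile (y axis) by distance in kb from the lower end of the gene span (x axis, span shaded), for Ahrr in IL-10+ and IL-10- Treg and for Vdr in Rorgt gdT and all labelled cells, with the cecum at left and the tumor at right. In the tumor the Ahrr stretch near 49.1 kb reached 31.9 for IL-10+ Treg but 16.9 for IL-10-, and the Vdr tile at 36.3 kb reached 15.5 in Rorgt gdT.

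Rara, a receptor for retinoic acid, was the most open of the 6 and the least variable between labels together with Nr3c1. In the cecum it ran from 444 FPM (416 to 473) in Rorgt gdT, 413 (375 to 453) in Innate-like T#2 and 408 (373 to 445) in CCR7+ CD8 down to 267 (245 to 290) in CD8aa, 267 (248 to 286) in Cytotoxic gdT and 251 (234 to 268) in Cytotoxic CD8. In the tumor IL-10+ Treg had 439 (415 to 465), Rorgt gdT 427 (399 to 455), Innate-like T#2 408 (385 to 431) and CD8aa, the lowest, 241 (225 to 258). The cytotoxic and CD8aa labels were lowest in both libraries, and the leading label was 1.77-fold (1.61 to 1.94) and 1.82-fold (1.66 to 1.99) above the lowest. Gm46294, Gm22061 and part of Cdc6 lie within the window of Rara, and their fragments cannot be told apart from its own.

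Within Rara the tile with the most fragments was chr11:98942001-98942500, 2.54 kb from a start, with 14.1% of the tile sum and levels of 92.5 in Rorgt gdT in the cecum and 77.5 in Th2 in the tumor against medians of 60.7 and 63.3. The tile chr11:98939501-98940000, which holds the start at 98939711, had 32.1 FPM in Innate-like T#2 in the cecum from 34 fragments and 24.2 in the tumor from 73. The other labelled cells had 7.69 and 8.39, and the lowest labels 2.95 (Cytotoxic CD8, cecum) and 0 (Th2, tumor). A second tile led by the same label, chr11:98933001-98933500, had 22.6 and 21.6 there against 5.89 and 6.58. Both were chosen for the ratio and are a description.

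Rxra, the shared partner of VDR and RARA, was lowest in CD8aa, Cytotoxic gdT and Tfh-like cells, with Cytotoxic CD8 also low in the cecum. In the cecum IL-10+ Treg had 77.2 FPM (70.2 to 84.8), Innate-like T#2 76.4 (60.6 to 94.9), Mucosal Th1 75.8 (68.6 to 83.6), Rorgt gdT 73.1 (62.1 to 85.4) and PD1+ CD8 70.8 (62.4 to 80.0). CD8aa had 24.6 (18.4 to 32.2), Tfh-like 31.0 (23.9 to 39.4), Cytotoxic gdT 33.9 (27.6 to 41.2) and Cytotoxic CD8 33.9 (28.0 to 40.7), all below the intervals of those 5. In the tumor Newly activated CD4 led with 102 (91.3 to 115), before Mucosal Th1 with 97.3 (81.0 to 116), and Tfh-like with 33.9 (20.4 to 52.9), Cytotoxic gdT with 35.1 (29.6 to 41.2) and CD8aa with 39.6 (33.2 to 46.8) were lowest. PD1+ CD4 cells of the tumor had 91.2 (83.8 to 99.0), in the range of the highest labels. Tfh-like, low for both Ahrr and Rxra, was the label with the highest summed B cell markers, 0.733 FPM per kb (cecum) and 0.660 (tumor), and their part in these levels was not tested.

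The start of Rxra at 27677201 lies in its most open tile, chr2:27677001-27677500, with 17.1% of the tile sum. The second, chr2:27693501-27694000, lies in the gene, 15.5 kb before the start at 27709292, with 8.15%. There PD1+ CD8 had 8.88 FPM from 32 fragments in cecum and 16.2 from 148 in tumor cells, and the cecum was led by CCR7+ CD8 with 16.5. CD8aa with 1.39 and Tfh-like with 1.41 were lowest in the cecum and Cytotoxic gdT with 2.39 in the tumor.

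Nr3c1, the glucocorticoid receptor, was open in all labels within a narrow range. In the cecum Th2 had 394 FPM (344 to 449), IL-10+ Treg 345 (329 to 360), Mucosal Th1 339 (323 to 355) and IL-10- Treg 331 (310 to 352). The lowest were CCR7+ CD4 with 244 (217 to 274), CCR7+ CD8 with 238 (212 to 266) and PD1+ CD8 with 233 (218 to 250). In the tumor Th2 had 335 (283 to 394) and CD8aa 307 (289 to 326), and CCR7+ CD8 with 230 (199 to 263) was lowest, so that the leading label was 1.69-fold (1.45 to 1.96) above the lowest in the cecum and 1.46-fold (1.17 to 1.81) in the tumor. The tile with the largest ratio, chr18:39519501-39520000, just beyond the upper end of the span, had 72.1 in Th2 from 41 fragments in cecum and 47.8 from 21 in tumor cells, against 33.4 and 26.2 in the other cells, and was chosen for that ratio. Its most open tiles, chr18:39489501-39490000 and chr18:39490501-39491000, lie 29.7 and 28.7 kb inside that end and held 9.38% and 8.55% of the tile sum.

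Gut and tumor were then compared within each label, which removes differences in the mix of labels but not in the mix of cell states within a label. Median log2 ratios of tumor over cecum over the 16 labels were -0.23 for Ahrr, -0.17 for Nr3c1, -0.10 for Vdr, -0.08 for Ahr, 0.08 for Rara and 0.13 for Rxra. None of the 6 was 1.2-fold higher, against 5.3% of 17355 genes, and none 1.2-fold lower, against 1.43%. The median over all genes was 0.00115 on the log2 scale and between -0.01 and 0.02 in each label, which scaling each label to its own total largely sets. Scaled by fragments near gene ends, the label medians ran from -0.08 to 0.12.

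Ahrr was lower in the tumor in 12 of 16 labels, with 7 intervals below 0 and none above. The ratio was -0.98 (-1.90 to -0.17) in Tfh-like, -0.67 (-1.0 to -0.33) in Rorgt gdT, -0.66 (-0.88 to -0.43) in IL-10- Treg, -0.36 (-0.60 to -0.11) in CD8aa, -0.34 (-0.67 to -0.02) in Mucosal Th1, -0.30 (-0.51 to -0.10) in IL-10+ Treg and -0.20 (-0.31 to -0.08) in Innate-like T#1. Its median ratio stood at percentile 2.19 of all genes. Counted within the span alone, Ahrr was past 1.2-fold lower with a median of -0.42, as were 1.78% of 16182 genes, with 9 intervals below 0 and 1 above. Within 1 kb of gene starts, Ahrr and Nr3c1 were both past 1.2-fold lower, against 1.5% of 13275 genes. The Ahrr median was -0.74 over the 12 labels with fragments in both libraries, of which 10 were lower and only 2 had an interval below 0, and it was -0.55 over all 16 labels with 1 FPM added. The Nr3c1 median was -0.32, with 6 intervals below 0. For Nr3c1, as for Ahr, that window covered both ends of the span because the start was not in the promoter table.

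Nr3c1 was lower in the tumor in 13 of 16 labels, with 7 intervals below 0 and none above, and its median stood at percentile 4.22. Rorgt gdT went from 327 FPM in the cecum to 253 in the tumor, a ratio of -0.37 (-0.53 to -0.21), and Innate-like T#2 from 311 to 255 (-0.28, -0.47 to -0.09). Both Treg subsets were lower to a like degree, IL-10+ Treg from 345 to 288 (-0.26, -0.38 to -0.14) and IL-10- Treg from 331 to 277 (-0.25, -0.37 to -0.14). PD1+ CD8 with 233 and 237 and Cytotoxic CD8 with 279 and 291 were among the 3 labels that were not lower.

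Rxra was higher in the tumor in 14 of 16 labels, with 5 intervals above 0 and none below. The ratio was 0.69 (0.22 to 1.17) in CD8aa, 0.55 (0.02 to 1.10) in Th17, 0.51 (0.16 to 0.86) in Cytotoxic CD8 and 0.36 (0.06 to 0.65) in Mucosal Th1, and Newly activated CD4 had 0.54 with an interval that begins just above 0. Its median stood at percentile 83.2, and in the window around the start it was -0.02. Rara was higher in 9 labels and lower in 7, with 4 intervals above 0, of which PD1+ CD8 with 0.34 (0.24 to 0.45) and IL-10+ Treg with 0.24 (0.13 to 0.34) had the narrowest, and 1 below 0, Innate-like T#1 with -0.15 (-0.23 to -0.08). Around its starts the median of Rara was -0.13.

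For Ahr and for Vdr, intervals off 0 lay on both sides of 0. Ahr was lower in 11 labels and higher in 5, with intervals off 0 for CCR7+ CD4 at -1.95 (-3.49 to -0.70), Mucosal Th1 at -0.39 (-0.78 to -0.02) and Innate-like T#2 at 0.59 (0.08 to 1.12). Vdr was lower in 11 and higher in 5, with intervals off 0 for Th17 at -0.50 (-0.92 to -0.07) and Rorgt gdT at 0.41 (0.12 to 0.69). Within the span alone the median of Vdr was 0.17, the opposite sign.

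**Figure D3:**
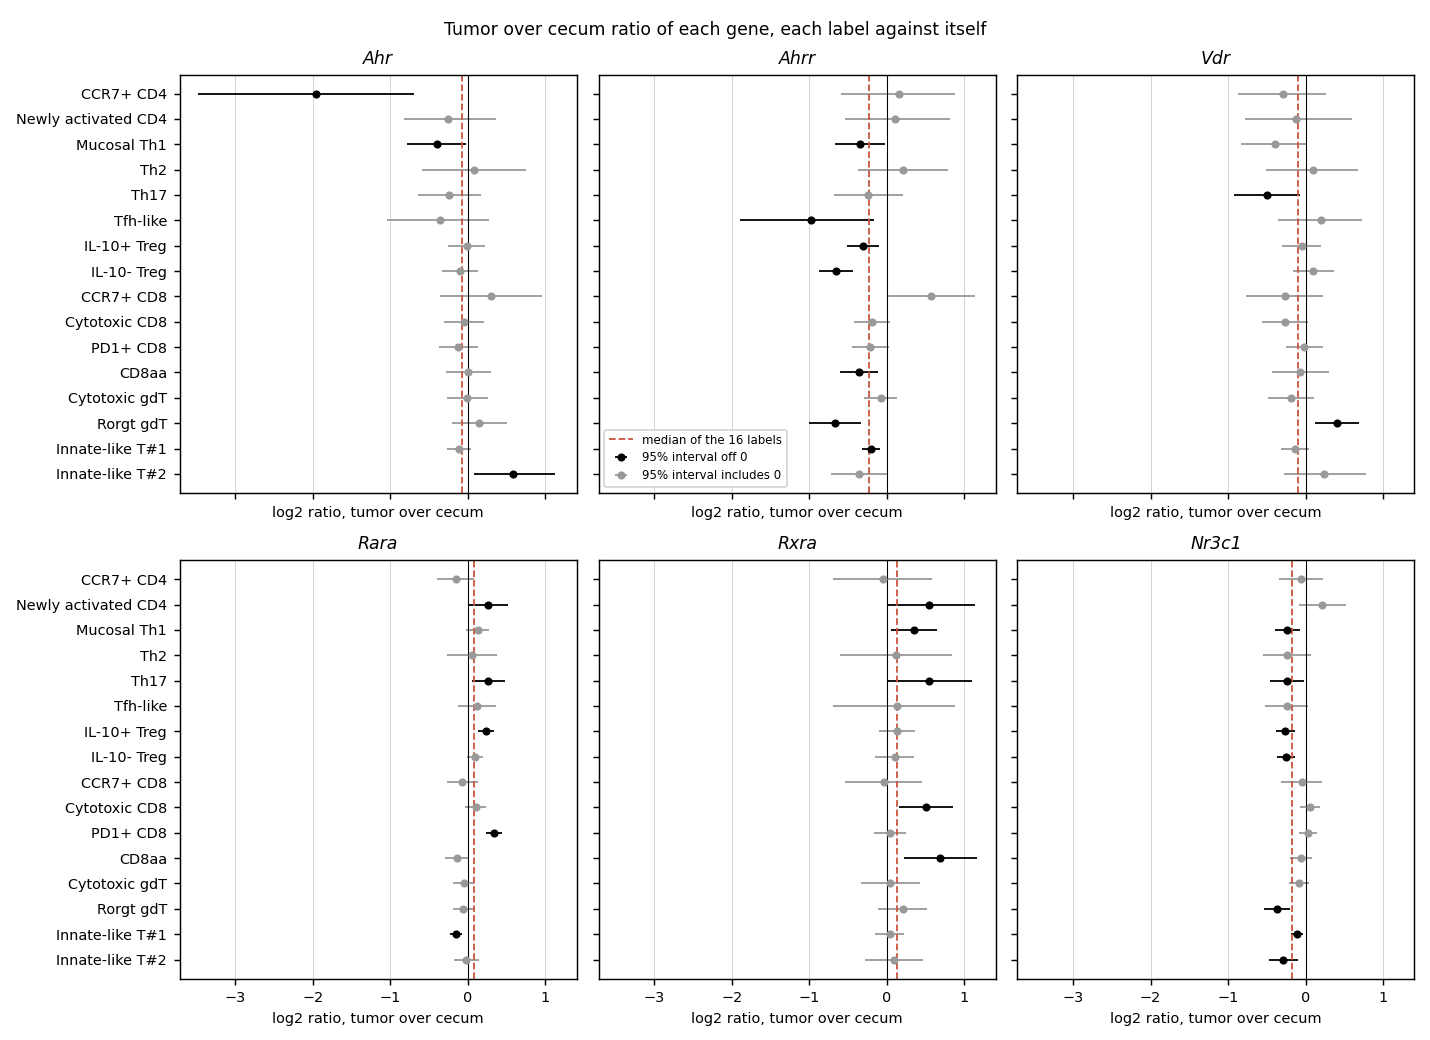
Log2 ratio of tumor over cecum (x axis) for each gene in the 16 ranked labels (y axis), each label against itself, with exact conditional 95% intervals as bars, black where off 0, and the median as a dashed line. Ahrr and Nr3c1 each have 7 labels with an interval below 0 and none above, and Rxra has 5 above and none below.

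The study set IL-10+ against IL-10- Treg cells, and these subsets were compared next within each library. In the window with flanks, none of the 6 genes was 1.2-fold higher in IL-10+ Treg in both libraries, against 5.16% of genes, and none 1.2-fold lower, against 13.6%. Ahrr came closest. It had 703 and 308 fragments in IL-10+ and IL-10- Treg of the cecum, or 123 and 103 FPM, and 272 and 378 in the tumor, or 99.7 and 65.1 FPM. The log2 ratios were 0.26 (0.07 to 0.46) and 0.61 (0.38 to 0.84). Vdr had 0.33 (0.07 to 0.60) in cecum and 0.18 (-0.08 to 0.44) in tumor cells, and its cecum ratio turned to -0.42 with the mean over cells (1 FPM added). Rara had 0.06 (-0.04 to 0.17) and 0.20 (0.10 to 0.31), Rxra 0.21 (-0.03 to 0.46) and 0.25 (0.01 to 0.49), Ahr 0.06 (-0.17 to 0.30) and 0.15 (-0.09 to 0.39) and Nr3c1 0.06 (-0.05 to 0.17) and 0.05 (-0.07 to 0.18). The tumor ratio of Rara turned to -0.047 within 1 kb of the start (1 FPM added).

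For Ahrr, intervals above 0 were seen in tiles inside the gene and at its start, and not in the flanking tile. In the flanking tile near Exoc3, IL-10+ and IL-10- Treg had 28.7 and 31.0 FPM in the cecum, and 23.5 and 26.5 in tumor cells, ratios of -0.11 (-0.49 to 0.27) and -0.18 (-0.62 to 0.25). In the tile at 74260001 the ratio was 0.14 (-0.20 to 0.49) in the cecum, with 223 and 106 fragments, and 0.92 (0.48 to 1.35) in the tumor, with 87 and 98. In its neighbour at 74259501 it was 0.19 (-0.27 to 0.67) and 1.43 (0.81 to 2.06). Between tissues the same tiles had log2 ratios of tumor over cecum of -1.07 (-1.48 to -0.66) and -1.43 (-2.04 to -0.82) in IL-10- Treg. In IL-10+ Treg they were -0.29 (-0.67 to 0.07) and -0.19 (-0.68 to 0.29). In the tile of the start the interval was above 0 in both libraries, with 10.3 and 5.33 FPM in the cecum, a ratio of 0.95 (0.14 to 1.85), and 7.33 and 2.93 in the tumor, 1.32 (0.32 to 2.35). That tile was among those chosen for a high ratio of a label over all other cells, here IL-10+ Treg. Its Treg ratios are therefore a description. Whether the subsets differ more in one tissue than in the other could not be tested with 1 library each.

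The Ahrr ratio changed in size with the window and the cells counted. With 1 FPM added and flanks of 50 kb it was 0.20 in cecum and 0.27 in tumor cells, and without cells above 3 times the median depth it was 0.11 and 0.50, not past 1.2-fold in both libraries in either case. In the narrower windows it was larger. Within the span alone its ratio was 0.39 (0.15 to 0.64) in cecum and 1.05 (0.75 to 1.35) in tumor cells, past 1.2-fold in both together with Vdr at 0.38 (-0.04 to 0.81) and 0.35 (-0.04 to 0.74), against 6.02% of 16182 genes. Within 1 kb of the start Ahrr had 71 and 18 fragments in the cecum, and 23 and 20 in tumor cells, ratios of 1.05 (0.29 to 1.89) and 1.29 (0.36 to 2.23), and was the only member past 1.2-fold in both, against 5.23% of 13275 genes. The Vdr interval included 0 in each library within the span, and around the start its tumor ratio was -0.36 (-0.79 to 0.06). The Nr3c1 ratio in the cecum had intervals on opposite sides of 0, with 0.14 (0.02 to 0.26) in the span and -0.25 (-0.49 to -0.01) around the start.

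**Figure D4:**
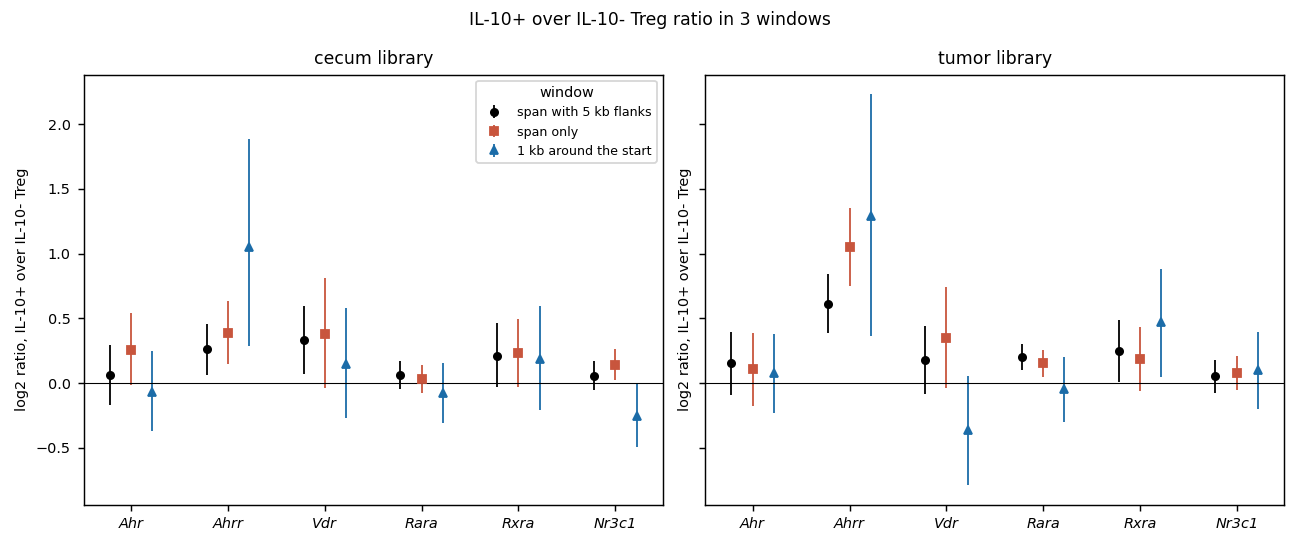
Log2 ratio between Treg subsets, IL-10+ divided by IL-10- (y axis) for each gene (x axis) in 3 windows, with exact conditional 95% intervals as bars, cecum at left and tumor at right. Ahrr is above 0 in all 3 windows of both libraries, from 0.26 with flanks in the cecum to 1.29 around the start in the tumor.

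The profiles of some of the 6 genes over labels resembled each other. Over 32 points, 16 labels in each of 2 libraries centred within the library, Pearson r of log2(FPM + 1) was 0.77 for Rara with Rxra, 0.75 for Ahrr with Nr3c1, 0.62 for Ahr with Ahrr and 0.53 for Ahr with Nr3c1, and lay between -0.16 and 0.32 for the other 11 pairs. Among 15219 genes with at least 200 fragments in each library, over 1 Mb away, Rxra was the fourth most alike for Rara, and Rara the second for Rxra behind Gm46294, which overlaps Rara. Ahrr was the fourth for Nr3c1. The other genes most like Rara were Lmna (0.86), Ramp1 (0.79) and Anp32a (0.78), and for Rxra Bcl2l1 (0.77), Gpx3 (0.74) and Smad3 (0.74). For Ahr they were Optn (0.87), Pou2f3 (0.85), Anxa11 (0.83), Osbpl3 (0.83) and Pkp2 (0.82), for Ahrr Rab20 (0.88), Rgs9 (0.84), Coro2a (0.84), Pvrig (0.84) and Camk2n1 (0.83), and for Nr3c1 Tk2 (0.78), Spsb2 (0.76), S100a11 (0.75) and Cgrrf1 (0.75). For Vdr the values were lower, with Cd69 (0.72), Srgn (0.72), Gclc (0.72), Fth1 (0.71) and Nfkbia (0.71). The points share libraries and depth, labels are not independent, and no p-value is given.

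Partners and targets of AHR were described from a list of 10 genes, all with enough fragments, and its counts, like those of the lists after it, read against the shares of all genes given above. The same label led in both libraries for 4, and 1 was specific, Il22, the interleukin that AHR helps to induce, with 17.2 FPM in Th17 of the cecum and 17.5 in Th17 of the tumor (15 and 41 fragments) against medians of 1.75 and 1.14. Arnt2, a relative of the AHR partner, was the list's highest in tumor over cecum (median log2 0.47) and past 1.2-fold, and Gpr15, a homing receptor for the large intestine, was the lowest (-0.28) and past it. Nqo1, a detoxifying enzyme, had 0.21 and Il22 -0.21. The Il22 value is a median over labels with levels near the 1 FPM added, from 85 (cecum) and 126 (tumor) fragments in all. It does not describe Th17, where the levels given above were alike in both libraries. The list median was -0.06. In IL-10+ over IL-10- Treg 3 genes were past 1.2-fold higher in both libraries and 2 lower. The higher ones, named after their values were seen, were Arnt (0.34 and 0.40), Arnt2 (0.28 and 0.53) and Tiparp, an AHR-induced enzyme that limits AHR signalling (0.37 and 0.52), and the lower ones Cyp1b1 (-0.55 and -0.73) and Nqo1 (-0.80 and -0.57).

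The vitamin D list of 7 genes had 1 gene with the same leading label, none specific and none past 1.2-fold between tissues, with a median of 0.02. Rxrg (0.13) and Cyp24a1, the enzyme that degrades vitamin D (0.05), were highest in tumor over cecum, and Cyp2r1 (-0.10) and Rxrb (-0.08) lowest. Rxrg and Cyp24a1 also had the largest ratio of the leading label to the median, but on few fragments. The leading level of Rxrg was 3.99 FPM in the cecum (12 fragments) and 6.83 in the tumor (3), and that of Cyp24a1 6.89 (6) and 10.0 (13). Cyp2r1, which makes 25-hydroxylated vitamin D, was the only one past 1.2-fold in Treg subsets, with 0.88 (cecum) and 0.81 (tumor), and was named for it after its values were seen. Ncor1, a corepressor, was the gene led by the same label, Th2.

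The retinoid list of 16 genes had 8 with the same leading label and 6 specific, and 4 past 1.2-fold higher in the tumor with none lower, at a median of 0.11. Named after their values were seen, they included Aldh1a2, Dhrs3 and Cyp26b1 (0.28). Stra6, a membrane receptor for retinol-binding protein, was the most label-dependent, with 104 FPM in CCR7+ CD4 of the cecum and 82.2 in the tumor against medians of 7.82 and 7.59. Aldh1a2, a retinoic acid synthase, had the highest tumor over cecum ratio (0.32), then Dhrs3 (0.30), and Cyp26a1 (-0.24) and Rdh10 (-0.08) had the lowest. Ccr9, a small intestinal homing receptor induced by retinoic acid, was led by Cytotoxic gdT with 65.5 and 64.2. In Treg subsets 2 genes were higher, Ccr9 and Aldh1a1, and 4 lower, Aldh1a2, Aldh1a3, Stra6 and Cyp26a1, likewise named after their values were seen. The calls for Aldh1a1 (cecum 0.86, tumor 0.42), Cyp26a1 (cecum -0.32, tumor -0.80) and Aldh1a2 (cecum -1.14, tumor -1.11) rest on few fragments. They have 1 FPM added and no interval is given. Counted over all labels, Aldh1a1 had 71 (cecum) and 142 (tumor), of which 11 were from IL-10+ Treg of the tumor. Cyp26a1 had 91 (cecum) and 118 (tumor).

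The glucocorticoid list of 10 genes had 4 with the same leading label and 1 specific, Zbtb16, the transcription factor of innate-like T cells and a steroid target, with 522 FPM in Rorgt gdT of the cecum and 473 in the tumor against medians of 74.5 and 66.1. No gene was past 1.2-fold between tissues. Zbtb16 (0.16) and Fkbp5 (0.06) were highest and Klf9 (-0.17) and Nr3c2, the mineralocorticoid receptor (-0.14), lowest, at a median of -0.06. Nr3c2 was the second most label-dependent, led by IL-10- Treg with 116 in the cecum and CD8aa with 103 in the tumor. In Treg subsets 1 gene was higher, Zbtb16 (1.31 and 0.89), and 2 lower, Nr3c2 (-1.47 and -0.90) and Hsd11b1 (-0.51 and -0.70), the last named after its values were seen.

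Among 15 other ligand-sensing nuclear receptors, 5 had the same leading label, 4 were specific and none was past 1.2-fold between tissues, at a median of -0.03. Pparg, a fatty acid sensor, had 127 FPM in Th2 of the cecum and 125 in Th2 of the tumor against medians of 8.71 and 9.03. Pparg (0.24) and Ppard (0.03) were highest in tumor over cecum, and Nr1h3 (-0.09) was among the lowest. In Treg subsets 1 gene was higher and 2 were lower, Pparg (-1.65 and -1.72) and Rora (-0.54 and -0.39), the last named after its values were seen, as were Thrb and Esr1, both specific and led by CCR7+ CD4.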

How the data were processed

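T cell nuclei of 1 cecum and 1 tumor library were profiled by ATAC. The authors aligned reads with Cell Ranger ARC 2.0.0 to mm10 and deposited, per the file headers, 1 line for each unique fragment with its barcode and its count of read pairs, and a table of cell labels. Unlabelled barcodes were left out, and doublets were not called. A fragment was counted once for a gene if either end lay in the span (GRCm38.p6) or within 5 kb, and counts were summed per label and library and divided by all its fragments on chromosomes 1 to 19, X and Y (FPM). Genes needed 50 fragments in each library and labels 50 cells. Ratios across all genes, calls and values under the alternatives used a pseudocount of 1 FPM, and ratios of the 6 genes in the 3 windows used none unless stated. Intervals are exact at 95% (Poisson, or conditional binomial for ratios), cover counting error only, and treat fragments as independent. Calls needed 1.2-fold, with no test.

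Members and lists were chosen with earlier results of these data known. Beside the 6 genes, the text names for each the 5 most alike genes, and for each list the 2 highest, the 2 lowest and the 2 most label-dependent genes. Some genes that this rule names are not reported here. For each member the 3 tiles of 500 bp with the most fragments and the 3 with the largest label ratio (at least 20 fragments in the label of each library) were considered. Alternatives changed the cells, window, scaling, fragment length, labels, pseudocount and filter. Counting and intervals were tested on simulated data. Python 3.11.15 was used with scipy 1.17.1, numpy 2.4.6, numba 0.67.0, pandas 2.3.3, matplotlib 3.10.9 and pyarrow 21.0.0.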

Additional observations from a re-analysis of the deposited data

Results flagged for a closer look

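In the window with flanks, labels of 3 of the genes moved in opposite directions between cecum and tumor with both intervals off 0. None of these differences was tested, since each tissue had 1 library. The share of all genes with such opposite labels was not computed. The log2 ratio of tumor over cecum for Ahr was 0.59 (0.08 to 1.12) in Innate-like T#2 and -1.95 (-3.49 to -0.70) in CCR7+ CD4, the latter resting on 6 tumor fragments. For Vdr it was 0.41 (0.12 to 0.69) in Rorgt gdT and -0.50 (-0.92 to -0.07) in Th17. For Rara it was 0.34 (0.24 to 0.45) in PD1+ CD8 and -0.15 (-0.23 to -0.08) in Innate-like T#1. The pattern depended on the window. Within the span alone, of these genes only Rara had intervals on both sides of 0 (5 above, 1 below). Ahr had 0 above and 1 below there, and Vdr 1 above and 0 below. Around the start Ahr again had 0 above and 1 below, and Vdr and Rara each had 1 above and 0 below.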

How the results depend on the processing

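No paired analysis was possible because each tissue had 1 library, and no replicate could be left out. Within the span alone, members with the same leading label numbered 1 (Ahrr, against 24.2% of genes), members lower in the tumor 1 (Ahrr) and members higher in IL-10+ Treg 2 (Ahrr, Vdr). Within 1 kb of the start these counts were 4 (Ahr, Ahrr, Rara, Nr3c1, against 18% of genes), 2 (Ahrr, Nr3c1) and 1 (Ahrr), and 1 member was specific (Ahrr, against 8.01% of genes). With the mean over cells, 1 member was specific (10.8% of genes) and 1 higher in IL-10+ Treg (7.43%), both Ahrr. Without cells above 3 times the median, 1 was specific (Ahrr, against 12.3% of genes). With fragments shorter than 150 bases, 1 had the same leading label (Nr3c1, against 22.6% of genes) and 2 were higher in IL-10+ Treg (Ahrr, Rxra, against 6.69%). Over the 8 labels with at least 200 cells, 4 had the same leading label (Ahr, Ahrr, Vdr, Rxra), against 41.0% of genes. The cause of these moves was not tested.

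The ratios here have 1 FPM added. Of the Treg ratios (IL-10+ over IL-10-) whose interval lay above 0 in the wider window, 2 changed sign: that of Rara in the tumor was -0.047 around the start, and that of Vdr in the cecum was -0.42 with the mean over cells. Ratios whose interval held 0 in the wider window also changed sign under some alternatives, among them Nr3c1 in the cecum (-0.25 around the start). Around the start the tumor level of Rara in the label that led it in the wider window was 0.981 times the median. The median tumor over cecum ratio lay below 0 under every alternative for Ahrr (-0.55 to -0.10), Nr3c1 (-0.32 to -0.10) and Ahr (-0.17 to -0.01), and crossed 0 for Vdr (-0.17 to 0.16), Rara (-0.13 to 0.17) and Rxra (-0.02 to 0.25). Over the alternatives, the share of all genes past 1.2-fold lay between 1.34% and 8.78% (higher in tumor), 0.161% and 3.21% (lower), and 3.65% and 7.43% (higher in IL-10+ Treg). Few fragments limit the precision in small labels, such as CCR7+ CD4, Tfh-like and Th2 of the tumor.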
